A study of Rattus norvegicus with 6 samples.

Results

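The genes described here encode the chaperones, folding enzymes and regulators with which a cell answers unfolded protein. They were chosen by name, 34 in all, with earlier results of these data known. Their probes were found by matching each probe's RefSeq accession to the gene. Of the 34 genes, 31 had at least 1 probe, out of 15284 named genes on the array, and together they had 63 probes. Manf, Edem1 and Dnajb1 had no matching probe and were not analysed here. Liver RNA came from male Sprague-Dawley rats, 5 weeks old when bought, and each of the 6 arrays stood for 1 animal. The 3 controls received corn oil, and the other 3 rats received phenolphthalein, a pH indicator and former laxative, in a daily dose of 1000 mg per kg. The design text speaks of day 28 and the treatment protocol of 9 weeks, and the labels do not settle which holds.

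Values below are log2 of the spot signal after subtracting the log2 of the array's 75th percentile, so 0 is that percentile and 1 unit is a doubling. The corn oil arrays lay on slide 1 and scan 1 and the phenolphthalein arrays on slide 2 and scan 2, so the treatment cannot be told apart from slide or scan. Between 62.1% and 65.1% of probes were well above background per array, and 31 of 31 members were well above it on all 6 arrays. The hepatocyte markers Alb, Apoa1, Ttr, Serpina1, Cps1 and Tat were all well above background on every array, and their summed linear signal was 2571 to 2762 with corn oil and 2643 to 2726 with phenolphthalein. In bulk tissue, fewer cells of a type and less RNA per cell cannot be told apart.

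As background, proteins that enter the endoplasmic reticulum (ER) are folded there by chaperones such as BiP, the product of Hspa5. When unfolded protein builds up, the sensors IRE1, PERK and ATF6 set off the unfolded protein response, in which XBP1 and ATF6 raise the genes of ER chaperones and of ER-associated degradation. PERK and related kinases phosphorylate eIF2-alpha, which favours translation of the transcription factor ATF4, and ATF4 in turn raises transcription of Ddit3, Trib3, Chac1 and Asns, an arm called the integrated stress response. When unfolded protein builds up in the cytosol, the heat shock factor HSF1 raises transcription of Hsp70, Hsp90 and small heat shock protein genes. Hepatocytes secrete most plasma proteins and carry much ER, so the ER chaperones are strongly used in liver under ordinary conditions.

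Promoters of some members are shown because they carry the sequence elements through which these arms act, and because the arms were compared apart. Sequences are from RefSeq, build GRCr8, and cover the 250 bases before the annotated start, 5′ to 3′ on the gene's strand. Capitals mark the match to a motif on either strand. The ER stress element (ERSE) was searched as CCAAT and CCACG with any 9 bases between them, and the related ERSE-II as ATTGG and CCACG with any 1 base between them. The core of the C/EBP-ATF element bound by ATF4 was searched as TGATGNAA, where N is any base, and the heat shock element as GAA, TTC and GAA with any 2 bases between each. ERSE and ERSE-II both end in the same letters and can share bases. A match is a description of letters and not a measured site.
Hspa5, ER stress element, chr3:38452766-38453015, plus strand: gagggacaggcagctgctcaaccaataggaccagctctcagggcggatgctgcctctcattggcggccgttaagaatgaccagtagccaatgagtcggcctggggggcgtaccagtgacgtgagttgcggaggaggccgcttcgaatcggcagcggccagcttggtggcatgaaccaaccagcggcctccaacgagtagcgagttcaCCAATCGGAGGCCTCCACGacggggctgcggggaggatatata
Calr, ER stress element, chr19:40213117-40213366, plus strand: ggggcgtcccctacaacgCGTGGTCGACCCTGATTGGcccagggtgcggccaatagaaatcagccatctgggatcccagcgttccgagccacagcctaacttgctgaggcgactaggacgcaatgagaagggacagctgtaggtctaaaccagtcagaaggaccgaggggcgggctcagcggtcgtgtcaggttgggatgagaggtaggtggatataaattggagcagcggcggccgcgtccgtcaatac
Creld2, ER stress element, chr7:121789134-121789383, plus strand: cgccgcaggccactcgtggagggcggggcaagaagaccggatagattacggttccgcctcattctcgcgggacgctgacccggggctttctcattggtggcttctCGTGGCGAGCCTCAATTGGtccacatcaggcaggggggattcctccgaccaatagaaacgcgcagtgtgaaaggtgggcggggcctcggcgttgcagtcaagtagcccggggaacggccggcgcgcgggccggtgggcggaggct
Chac1, C/EBP-ATF core, chr3:126795881-126796130, plus strand: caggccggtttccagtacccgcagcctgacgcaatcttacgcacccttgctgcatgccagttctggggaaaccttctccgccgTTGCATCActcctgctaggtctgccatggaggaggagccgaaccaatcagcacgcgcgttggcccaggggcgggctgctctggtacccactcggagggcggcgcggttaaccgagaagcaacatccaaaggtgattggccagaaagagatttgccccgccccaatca
Hspa8, heat shock element, chr8:50080264-50080513, plus strand: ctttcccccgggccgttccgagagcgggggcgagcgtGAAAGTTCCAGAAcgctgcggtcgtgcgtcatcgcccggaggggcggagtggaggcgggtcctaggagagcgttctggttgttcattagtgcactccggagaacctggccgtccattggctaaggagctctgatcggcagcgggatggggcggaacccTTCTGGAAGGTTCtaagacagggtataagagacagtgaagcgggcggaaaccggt
Hspd1, heat shock element, chr9:64084038-64084287, minus strand: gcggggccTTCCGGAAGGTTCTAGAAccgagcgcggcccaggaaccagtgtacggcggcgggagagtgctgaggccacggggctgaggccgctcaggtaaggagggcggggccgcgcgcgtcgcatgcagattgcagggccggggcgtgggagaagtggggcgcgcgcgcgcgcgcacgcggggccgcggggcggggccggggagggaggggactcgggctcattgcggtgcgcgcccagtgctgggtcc

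The table of promoters held 30 of the 34 members. The ER stress element was present in 6 of the 13 ER genes with a promoter (Calr, Creld2, Dnajc3, Hsp90b1, Hspa5 and Xbp1), in 0 of 6 integrated stress response genes and in 0 of 11 heat shock genes, against 0.0657% of all 33469 promoters of that length. ERSE-II was present in Herpud1 and Hyou1, against 0.0418% of all promoters. The heat shock element was present in 4 of the 11 heat shock genes (Hspa8, Hspd1, Hspe1 and Hsph1), against 0.663% of all promoters. The C/EBP-ATF core was present in Chac1 and Trib3 and in the ER gene Herpud1, against 3.40% of all promoters. In Hspa5 the match ended 24 bases before the start.

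The comparison asked whether phenolphthalein treatment was accompanied by a different level of these stress genes. In limma's moderated test, adjusted by Benjamini-Hochberg over 11434 genes, 0 of 31 members passed an adjusted p of 0.05, against 0.0612% of all tested genes, which is 7 genes. The smallest adjusted p of a member was 0.286, for Chac1. At an unadjusted p under 0.05, 2 members were lower (Chac1 and Ddit3), against 8.11% of all tested genes, and 0 were higher, against 7.16%. The phenolphthalein arrays lay wholly below the corn oil arrays for 5 members, against 11.0% of all tested genes, and wholly above them for 0, against 12.2%. The mean was lower with phenolphthalein for 24 of 31 members, against 48.2% of all tested genes, and the median log2 fold change was -0.08, against 0.01 over all tested genes. With each array shifted to its own median in place of its 75th percentile, the mean was lower for 16 of 31 members, with a median of -0.005, while that of all tested genes was 0.09. With normexp background correction it was lower for 21 of 31.

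**Figure D1:**
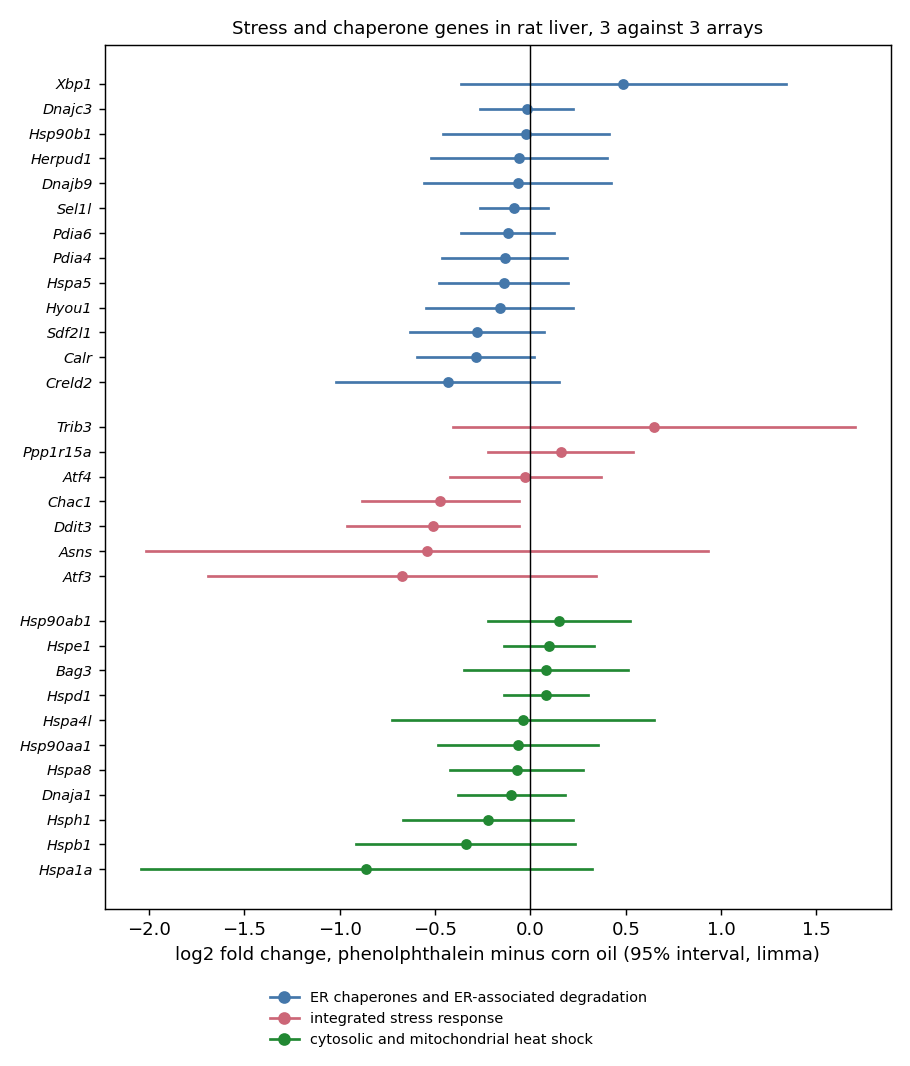
Log2 fold change of each of the 31 measured members, phenolphthalein minus corn oil, with its 95% interval from limma, grouped into ER chaperones and ER-associated degradation (blue), integrated stress response (red) and heat shock (green). The intervals of 29 members hold 0, and those of Chac1 and Ddit3 lie below it before adjustment.

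The intervals were wide beside the differences. Over the 31 members the median distance from the fold change to the end of its 95% interval was 0.41 log2 units, and it reached 1.47 for Asns. Arrays of 1 group also spread more for these genes than for most: the within-group SD was above the median of all tested genes for 25 of 31 members, with a median of 0.23 log2 units against 0.15.

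Among the ER genes, the mean was lower with phenolphthalein for 12 of 13, but 0 passed and the median log2 fold change was -0.12. That count was 8 of 13 with a median shift, in which the median of all tested genes was 0.09, and 10 of 13 with normexp. The difference rested mainly on phenolphthalein replicate 2, which was the lowest of the 6 arrays for 10 of the 13 genes, a place it took for 19.4% of all tested genes. The median deviation of the 13 genes from their 6-array means was 0.08, 0.07 and 0.10 on the corn oil arrays, in order of replicate, and 0.03, -0.28 and 0.04 on the phenolphthalein arrays. Without phenolphthalein replicate 2 the median log2 fold change was -0.02 and 8 of 13 means were lower. Without phenolphthalein replicate 1 the median was -0.23, and 12 of 13 were lower.

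**Figure D2:**
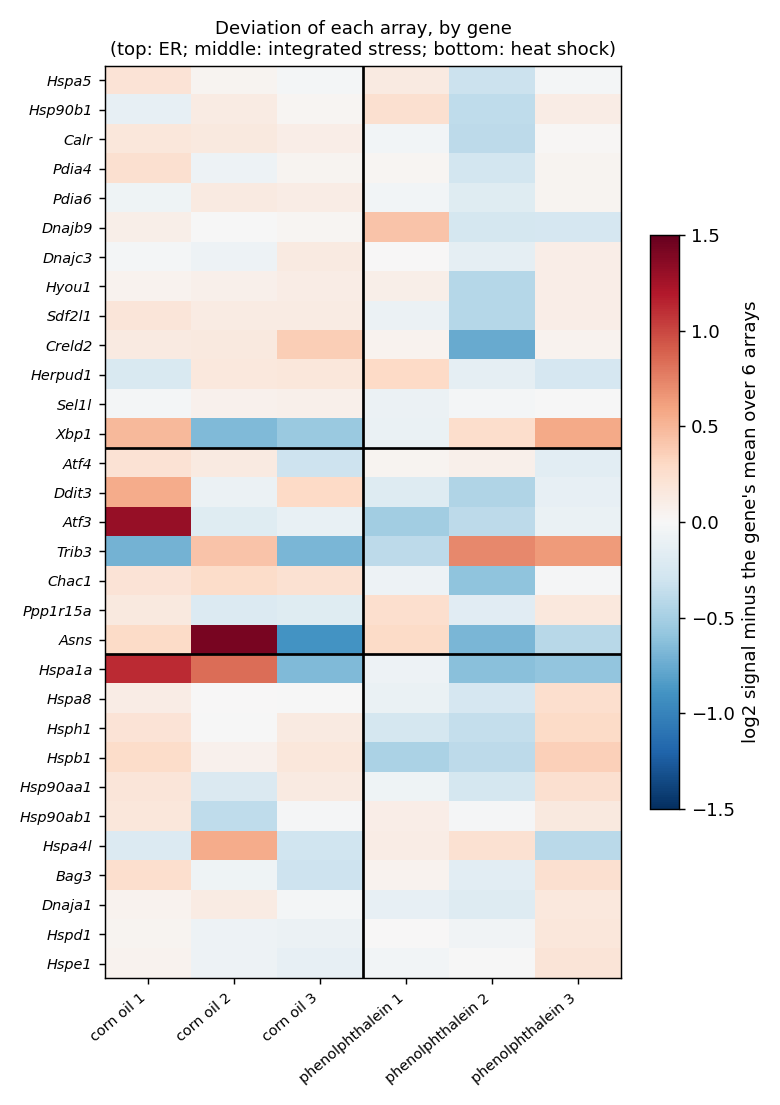
Heat map of the 31 measured members (rows) on the 6 arrays (columns), in which colour is the log2 signal minus the gene's mean over the 6 arrays. In the ER rows at the top, the column of phenolphthalein replicate 2 is the lowest of the 6 for 10 of 13 genes, and the strongest single cells are Asns on corn oil replicate 2, Atf3 on corn oil replicate 1 and Hspa1a on corn oil replicate 1.

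Hspa5 encodes BiP, the main Hsp70 chaperone of the ER lumen and the usual readout of ER stress. It read 6.97, 6.80 and 6.73 with corn oil and 6.90, 6.45 and 6.74 with phenolphthalein, here and below in order of replicate. The groups overlapped, with only phenolphthalein replicate 2 below every control. Its log2 fold change was -0.14 ± 0.14 (SE), with a 95% interval of -0.48 to 0.20 (limma adjusted p = 0.659), and without phenolphthalein replicate 2 it was -0.02.

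Hsp90b1, the Hsp90 of the ER lumen, read 4.56, 4.81 and 4.72 with corn oil and 4.93, 4.31 and 4.79 with phenolphthalein. Phenolphthalein replicate 1 was the highest array and replicate 2 the lowest, and the log2 fold change was -0.02 ± 0.18 (SE). Without phenolphthalein replicate 2 it was 0.16. A second probe of the gene gave -0.01.

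Calr, calreticulin, a calcium-binding lectin chaperone of glycoproteins, read 4.43, 4.41 and 4.36 with corn oil and 4.21, 3.86 and 4.27 with phenolphthalein. All 3 treated arrays lay below all 3 controls. Its log2 fold change was -0.29 ± 0.12 (SE) and did not pass (limma adjusted p = 0.347). Without phenolphthalein replicate 2 it was -0.16.

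Sdf2l1, a partner of the BiP machinery, read 4.46, 4.40 and 4.40 with corn oil and 4.19, 3.85 and 4.38 with phenolphthalein on its tested probe. The groups did not overlap there, but phenolphthalein replicate 3 lay within 0.1 of the controls, and on the other 2 probes of the gene the groups overlapped. The 3 probes differed by -0.28, -0.18 and -0.09, and the tested one had a limma adjusted p of 0.407. Without phenolphthalein replicate 2 the tested probe gave -0.14.

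Creld2, an ER-stress-inducible ER protein, read 2.87, 2.88 and 3.11 with corn oil and 2.79, 1.98 and 2.79 with phenolphthalein. The groups did not overlap, yet replicates 1 and 3 of the treated group were close to the controls and replicate 2 stood far below. Creld2 had a difference of -0.43 ± 0.24 (SE) on the log2 scale (limma adjusted p = 0.436), and of -0.16 without phenolphthalein replicate 2.

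Xbp1, the transcription factor whose mRNA IRE1 splices into its active form, was the 1 ER gene with a higher mean. It read 5.46, 4.31 and 4.41 with corn oil and 4.87, 5.24 and 5.54 with phenolphthalein. Corn oil replicate 1 was as high as the treated arrays while the other 2 controls lay below all of them. For Xbp1 the log2 fold change was 0.49 ± 0.35 (SE) (limma adjusted p = 0.536), and it was 0.86 without corn oil replicate 1 and 0.28 without corn oil replicate 2. Whether the probe distinguishes the spliced form was not tested.

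The other ER genes had differences between -0.16 and -0.02, and their groups overlapped. Hyou1, a large Hsp70-like chaperone, had a log2 fold change of -0.16 and the disulfide isomerase Pdia4 one of -0.13. It was -0.12 for the isomerase Pdia6 and -0.07 for Dnajb9, a BiP co-chaperone. For Dnajc3, a co-chaperone and inhibitor of eIF2-alpha kinases, it was -0.02. Of the degradation genes, Sel1l, the adaptor of the HRD1 ubiquitin ligase, had -0.08 and Herpud1, a membrane protein of the same complex, had -0.06. The ER genes with more than 1 probe kept the sign of the difference on each of their probes.

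For the integrated stress response genes the median difference was -0.47 on the log2 scale, with 5 of 7 means lower and 0 of 7 past the threshold. That median belonged to Chac1, the middle of 7 genes that ran from -0.67 to 0.65, and it was 0.033 without corn oil replicate 2 and -0.19 without corn oil replicate 1. Different genes stood out on different animals, Atf3 on corn oil replicate 1 and Asns on corn oil replicate 2.

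Ddit3 encodes CHOP, a transcription factor that promotes cell death under lasting ER stress. It read 3.36, 2.72 and 3.11 with corn oil and 2.62, 2.36 and 2.68 with phenolphthalein. The groups did not overlap, though corn oil replicate 2 was within 0.1 of the highest treated array. Its log2 fold change of -0.51 ± 0.18 (SE), a fold of 0.702, did not pass over all genes (limma adjusted p = 0.289). A second probe read 0.46, 0.02 and 0.21 with corn oil and -0.22, -0.45 and -0.15 with phenolphthalein, so the groups were apart on both probes and the differences were -0.51 and -0.50. Over 17 other settings the log2 fold change ran from -0.68 to -0.36.

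Chac1, which breaks down glutathione and is a target of ATF4, read 1.05, 1.1 and 1.06 with corn oil and 0.75, 0.23 and 0.82 with phenolphthalein. The 3 controls lay close together and all treated arrays below them. Chac1 differed by -0.47 ± 0.17 (SE) log2 units, a fold of 0.721 (limma adjusted p = 0.286), and by -0.29 without phenolphthalein replicate 2. A dimmer probe gave -0.07 with overlapping groups, and 1 more passed the background limit on 1 of 6 arrays only. When both measured probes were averaged, the log2 fold change was -0.27.

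Atf3, a stress-induced repressor that is also an immediate early gene, read 0.19, -1.30 and -1.22 with corn oil and -1.63, -1.5 and -1.21 with phenolphthalein. Corn oil replicate 1 alone stood above the other 5 arrays. For Atf3 the log2 fold change was -0.67 ± 0.41 (SE) (limma adjusted p = 0.478), and -0.19 without that array.

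Trib3, a pseudokinase induced by ATF4 and CHOP that restrains insulin signalling through Akt, went the other way. It read -0.10, 1.03 and -0.08 with corn oil and 0.22, 1.33 and 1.24 with phenolphthalein. Corn oil replicate 2 was high among the controls and phenolphthalein replicate 1 was low among the treated arrays. Its mean was 0.65 ± 0.43 (SE) log2 units higher with phenolphthalein and did not pass (limma adjusted p = 0.511). Without corn oil replicate 2 that difference was 1.02, without phenolphthalein replicate 1 it was 1.0, and without phenolphthalein replicate 2 it was 0.45.

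Asns, asparagine synthetase, ran from 0.18 on corn oil replicate 3 to 2.49 on corn oil replicate 2, so its widest gap lay within the controls. Its log2 fold change was -0.54 ± 0.60 (SE), with 0.03 without corn oil replicate 2 and -1.13 without corn oil replicate 3. Psat1, a serine synthesis enzyme also driven by ATF4, was likewise highest on corn oil replicate 2, at 2.25 against 0.35 to 0.60 on the other controls. It was named after its values were seen.

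Atf4 itself, which is controlled mainly at translation, read 5.38, 5.29 and 4.85 with corn oil and 5.20, 5.23 and 5.00 with phenolphthalein. The treated arrays lay within the range of the controls. For Atf4 the log2 fold change was -0.03 ± 0.16 (SE), with a 95% interval of -0.42 to 0.37. Ppp1r15a, the phosphatase subunit that reverses eIF2-alpha phosphorylation, gave a log2 fold change of 0.16 ± 0.15 (SE) on its tested probe and 0.05 on the other. The tested probe ran from 0.07 to 0.29 when 1 array was left out.

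**Figure D3:**
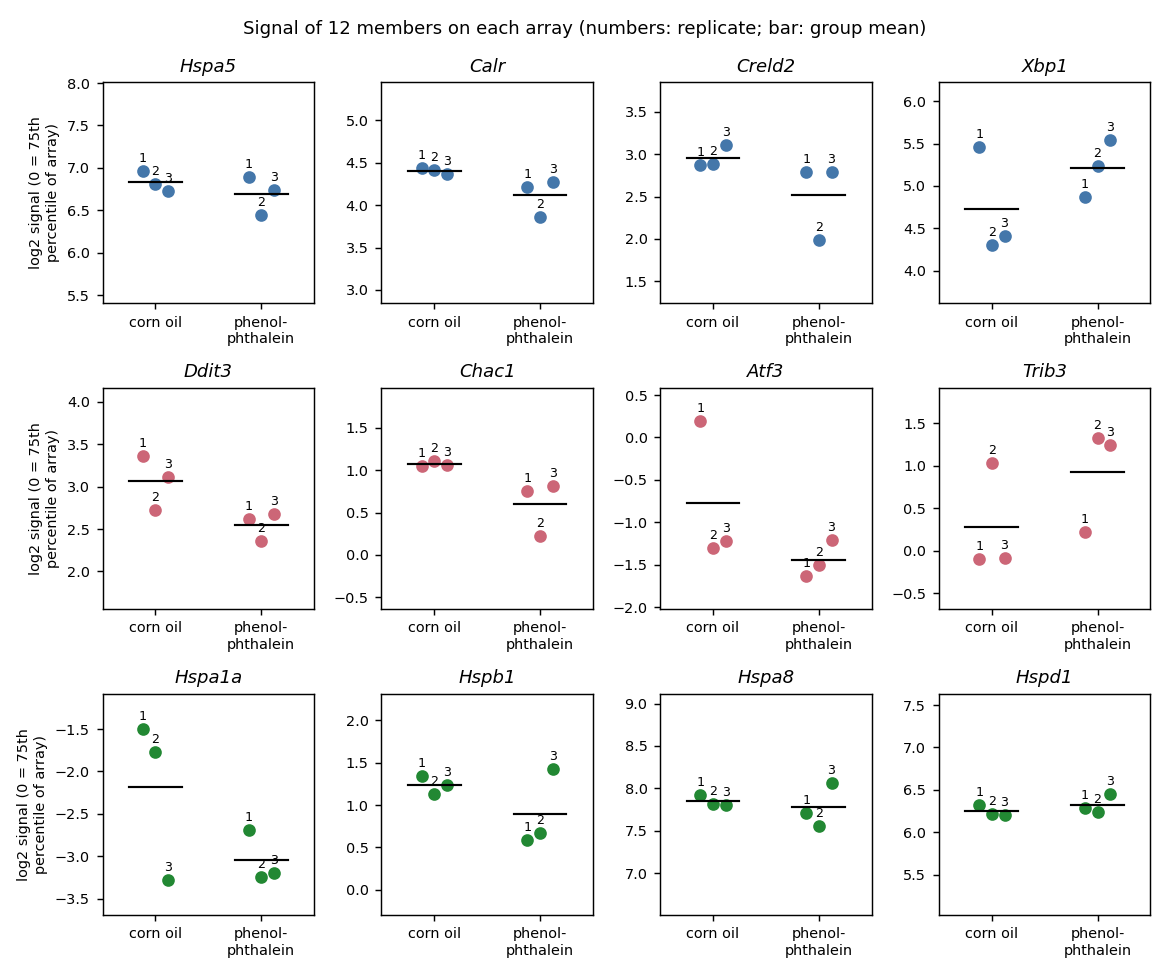
Log2 signal of 12 members on each array (0 is the 75th percentile of the array), with replicate numbers beside the points and a bar at each group mean; every panel spans the same 2.6 log2 units. Ddit3, Chac1, Calr and Creld2 have separate groups, while corn oil replicate 1 stands alone for Atf3 and phenolphthalein replicate 3 is high for Hspb1 and Hspa8.

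Marker genes of immune cells were also lower in the treated livers. The mean was lower for 10 of 10 measured Kupffer cell and macrophage markers, against 48.2% of all tested genes. All 10 had an unadjusted limma p under 0.05, against 8.11% of all tested genes in that direction. After adjustment 0 of these markers passed. Their summed linear signal was 184 to 261 with corn oil and 136 to 178 with phenolphthalein. The median deviation of these 10 genes was 0.53, 0.36 and 0.08 with corn oil and -0.48, -0.43 and -0.03 with phenolphthalein. Lymphocyte markers, of which 7 of 10 listed were measured, were lower for 7 of 7, with summed signals of 3.27 to 3.80 and 2.33 to 2.67. Of these, 4 had an unadjusted limma p under 0.05 and 0 passed after adjustment. Every measured marker of either list was well above background on every array. The part of these cells in the lower means of Ddit3 and Chac1 was not tested. Plasma cells, which carry much ER, were measured by 6 markers, of which Xbp1 is itself a member. The mean was lower for 5 of the 6, with a median log2 fold change of -0.16, and Xbp1 was the 1 with a higher mean. At an unadjusted limma p under 0.05 there were 0. The summed signal, which includes that of Xbp1, was 50.4 to 86.3 with corn oil and 65.1 to 87.1 with phenolphthalein, so the sums overlapped.

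Among the heat shock genes the mean was lower for 7 of 11, the median log2 fold change was -0.06, and 0 passed. The groups overlapped for all 11 tested probes. The sign of the median turned with a median shift, to 0.01, but the median of all tested genes was 0.09 in that setting. The sign also turned without phenolphthalein replicate 2, to 0.04, and without phenolphthalein replicate 3 the median was -0.20. Phenolphthalein replicate 3 was the highest of the 6 arrays for 7 of the 11 genes, a place it took for 20.0% of all tested genes. Phenolphthalein replicate 2 was the lowest for 4 of the 11, as was corn oil replicate 3.

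Hspa1a, the stress-inducible cytosolic Hsp70, had the most negative fold change of all members. It read -1.5, -1.77 and -3.28 with corn oil and -2.69, -3.24 and -3.20 with phenolphthalein. Corn oil replicates 1 and 2 lay above every treated array and corn oil replicate 3 below every one, so the groups overlapped. Its log2 fold change was -0.86 ± 0.48 (SE), a fold of 0.551 (limma adjusted p = 0.442), with a 95% interval of -2.04 to 0.32. It was -1.41 without corn oil replicate 3 and -0.52 without corn oil replicate 1. Rats carry near-identical copies of this gene, and the signal of its 1 probe may not belong to Hspa1a alone.

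Hspb1, a small heat shock protein that holds unfolded clients, read 1.34, 1.13 and 1.23 with corn oil and 0.58, 0.67 and 1.43 with phenolphthalein. Phenolphthalein replicates 1 and 2 were below the controls and replicate 3 was above them. Hspb1 differed by -0.34 ± 0.23 (SE) log2 units (limma adjusted p = 0.525), and by -0.61 without phenolphthalein replicate 3.

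Hsph1 encodes a nucleotide exchange factor of Hsp70. It read 0.34, 0.12 and 0.27 with corn oil and -0.13, -0.22 and 0.41 with phenolphthalein. Again 2 treated arrays lay below the controls and replicate 3 above them, and the log2 fold change was -0.22 ± 0.18 (SE). It was -0.42 without phenolphthalein replicate 3 and -0.10 without phenolphthalein replicate 2.

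Hspa8, the constitutive Hsp70 of the cytosol, had 8 probes. The tested one, with the highest signal, read 7.93, 7.81 and 7.80 with corn oil and 7.71, 7.56 and 8.06 with phenolphthalein. Phenolphthalein replicate 3 was the highest of all and the other 2 treated arrays the lowest, and the log2 fold change was -0.07 ± 0.14 (SE), or 0.04 without phenolphthalein replicate 2. All 8 probes had a lower mean with phenolphthalein, by -0.34 to -0.07, and the groups were apart on 1 of them. One of the probes at -0.34 rests on 2 treated arrays, since its spot on phenolphthalein replicate 3 carried an outlier mark.

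Hsp90aa1, the inducible cytosolic Hsp90, read 6.40, 6.0 and 6.35 with corn oil and 6.15, 5.95 and 6.46 with phenolphthalein. The groups overlapped, with phenolphthalein replicate 3 highest again. The tested probe gave a log2 fold change of -0.06 ± 0.17 (SE), and the 6 probes ran from -0.11 to 0.09. For Hsp90ab1, the constitutive form, the tested probe gave 0.15 ± 0.15 (SE), but 3 of its 5 probes gave a lower mean, from -0.11 to -0.07. Hspa8 and the Hsp90 genes have close relatives and pseudogene copies, which may share signal.

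**Figure D4:**
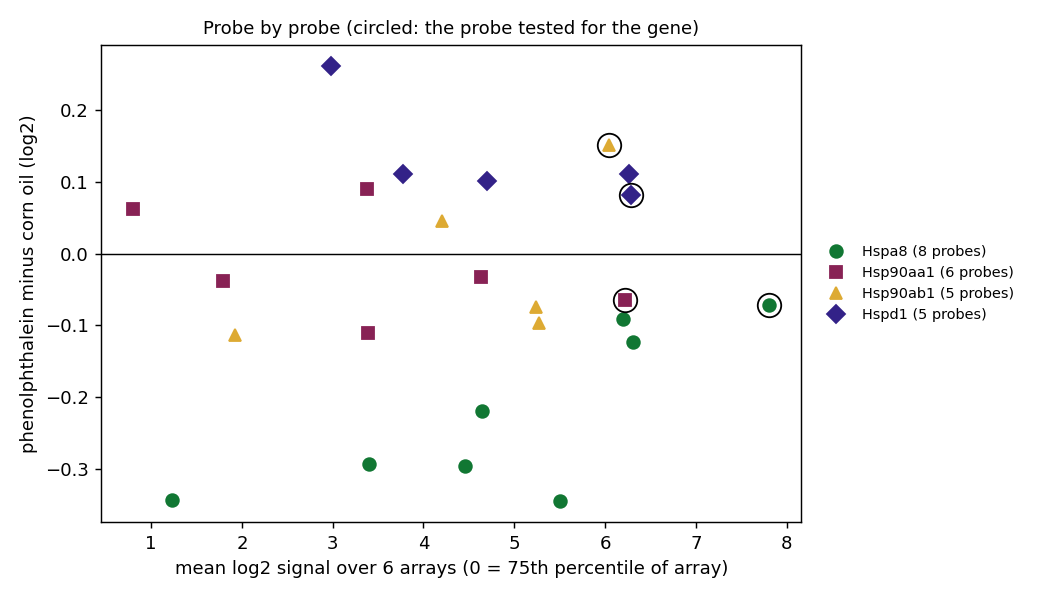
Difference between the groups (log2, phenolphthalein minus corn oil) for every probe of the 4 members with 5 or more probes, against the probe's mean log2 signal, with the tested probe circled. All 8 Hspa8 probes lie below 0 and all 5 Hspd1 probes above it, while the probes of both Hsp90 genes lie on either side.

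The mitochondrial chaperonins had slightly higher means with phenolphthalein, as did the tested probes of the cytosolic genes Hsp90ab1 and Bag3. Hspd1, the chaperonin Hsp60, read 6.32, 6.21 and 6.20 with corn oil and 6.29, 6.24 and 6.45 with phenolphthalein. On the tested probe the difference was 0.08 ± 0.09 (SE) log2 units, and the 5 probes gave 0.08 to 0.26, with the groups apart on 2 of them. Hspe1, its co-chaperonin Hsp10, which shares a promoter region with Hspd1, read 6.73, 6.60 and 6.56 with corn oil and 6.64, 6.68 and 6.87 with phenolphthalein. Its groups overlapped, and the log2 fold change was 0.10 ± 0.10 (SE) on the tested probe and 0.15 on the other. For both genes the 95% interval was narrow but held 0, from -0.14 to 0.30 and from -0.14 to 0.34. The log2 fold change of Hspe1 turned its sign in 1 of the 17 alternatives, to -0.01.

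The remaining cytosolic genes lay near 0. Dnaja1, an Hsp40 co-chaperone, had a log2 fold change of -0.10. Bag3, a co-chaperone of selective autophagy, had one of 0.08, and Hspa4l, an Hsp110 relative, one of -0.04.

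Other genes of the same pathways were read from lists made beside the members, also with earlier results of these data known. Of 46 further ER folding and degradation genes, 0 passed over all genes, 26 had a higher and 20 a lower mean, and the median log2 fold change was 0.07. Of 47 further heat shock and co-chaperone genes, 0 passed, 28 were higher and 19 lower, with a median of 0.04. Of 34 further integrated stress response genes, 0 passed, 10 were higher and 24 lower, with a median of -0.15. In the integrated stress list corn oil replicate 2 was the highest array for 16 of the 34 genes, against 16.2% of all tested genes, and without it the median was -0.05, with 20 means lower. With a median shift, 33 of the 46 ER genes, 37 of the 47 heat shock genes and 13 of the 34 integrated stress genes had a higher mean. That setting also raised the median log2 fold change of all tested genes, to 0.09. At an unadjusted limma p under 0.05 there were 2 higher and 0 lower in the ER list, 4 higher and 2 lower in the heat shock list, and 2 higher and 2 lower in the integrated stress list, beside 7.16% higher and 8.11% lower of all tested genes.

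The 3 genes of the further ER list with the smallest p were Ssr1, Spcs3 and Vcp. Ssr1, a subunit of the translocon-associated complex, was 0.36 ± 0.09 (SE) log2 units higher with phenolphthalein, Spcs3, a signal peptidase subunit, 0.36 ± 0.11 and Vcp, the ATPase that pulls proteins out of the ER, 0.19 ± 0.09. On these probes the treated arrays lay above the controls, and the limma adjusted p was 0.211, 0.239 and 0.362. A second Ssr1 probe gave 0.18 with overlapping groups, the other probes of Spcs3 gave 0.44 and 0.82, and Vcp had 1 probe. In the integrated stress list, Nupr1, a stress-induced chromatin protein, had a difference of -0.71 ± 0.14 (SE) log2 units with separate groups (limma adjusted p = 0.171). It read 4.34, 4.64 and 4.79 with corn oil and 4.05, 3.80 and 3.81 with phenolphthalein. Slc6a9, a glycine transporter, had -0.30 ± 0.09 (SE), with all 3 probes lower, and Eif2s1, which encodes eIF2-alpha, had 0.28 ± 0.09. The other Eif2s1 probe gave 0.11 with overlapping groups.

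In the co-chaperone list, Fkbp5, an Hsp90 co-chaperone that glucocorticoids induce, read 1.21, 2.25 and 2.47 with corn oil and 3.22, 3.87 and 3.37 with phenolphthalein. All treated arrays lay above all controls, and the log2 fold change was 1.51 ± 0.36 (SE), a fold of 2.85 (limma adjusted p = 0.2). Its other 2 probes gave 1.37 and 1.41, also with separate groups. Fkbp4, the counterpart that takes its place on Hsp90 in steroid receptor complexes, differed by -0.22 ± 0.07 (SE) log2 units, and its 3 probes gave -0.22 to -0.16. Cryab, a small heat shock protein, had 0.32 ± 0.10 (SE). None of these 3 genes passed after adjustment over all tested genes.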

How the data were processed

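Per the labels' protocols, cRNA was labelled with Cy3 and read on 1-colour Agilent arrays. Each deposited scanner file lists an intensity per spot from Agilent Feature Extraction (10.7 per the submitters' processing notes, 10.7.1.1 per the file headers), background-subtracted and detrended but not normalized between arrays. Set against the scanner files, the intensity in the authors' deposited table proved to be this signal over a divisor. Among the brighter spots, to which the check was limited, that divisor was constant on each array to within 0.0496%. The deposited table is thus linear, not centred per gene and of the same direction. Its column medians were 0.0984, 0.1011 and 0.1022 for corn oil and 0.0955, 0.0941 and 0.096 for phenolphthalein.

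Values are log2 of the processed signal relative to the 75th percentile of the array, for probes that passed the scanner's background limit on 3 or more of 6 arrays. Spots with an outlier mark were set missing, and the probe with the highest mean over the 6 arrays stood for its gene. Of 61657 probes, 27460 matched 1 gene by accession in a RefSeq table of GRCr8. The fit was made on 11434 genes with limma 3.58.1 (R 4.3.3), phenolphthalein minus corn oil, 3 animals each, with Benjamini-Hochberg adjustment, and was tested on simulated data. p-values measure the spread between these animals, whose number limits the precision. Members and lists were chosen with earlier results of these data known. Values on every array are given for Hspa5, Hsp90b1, Xbp1, Atf4, Ddit3, Hspa1a, Hspa8, Hsp90aa1, Hspd1 and the 4 members of each group with the smallest p, and the 3 genes with the smallest p are named from each further list. GRCr8 coordinates belong to the promoters alone, since the annotation of the array used another build.

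Alternatives were the replicate number as a block, leaving out each array in turn, the deposited table in place of the scanner signal, quantile normalization, a median shift, and normexp with an offset of 50 on median spot signals, as the scanner files used hold no mean. Probes were also averaged per gene, filtered on all 6 arrays or not at all, kept despite outlier marks, and fitted with a robust, trended prior. After the data were seen, a setting was added that masks an array column where 5% or more of the bright spots lay over 2 log2 units low. When an array was left out, the genes and probes stayed those of the full set.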

Additional observations from a re-analysis of the deposited data

How the results depend on the processing

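Across the 17 alternatives 0 members passed the adjusted threshold, and 18 of 31 members kept the sign of their log2 fold change in all of them. Leaving out 1 array turned the sign for 12. The count of all genes past the threshold was 7 and ran from 0 to 10 over the 17 alternatives. It ran from 0 to 6 when 1 array was left out. With the replicate number as a block it was 0, and 0 members passed too. Same-numbered arrays did not deviate together (correlations over genes of -0.0245, 0.0165 and -0.0035), so the numbers were not taken as pairs. The median of the integrated stress response members was -0.27 when probes were averaged per gene and ran from -0.54 to 0.033 when 1 array was left out. The medians of the ER members ran from -0.23 to -0.02 and of the heat shock members from -0.20 to 0.04 over all alternatives. The ends of both ranges came from leaving out 1 array, and the heat shock median changed its sign. The cause of these shifts was not tested. The tested probes of all 31 members were well above background on every array. Hspa1a and Hspa4l were still dim, with 21.4% and 15.6% of tested genes at a lower level. Over the 17 alternatives the log2 fold change of Hspa1a ran from -1.41 to -0.44.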
